A study of Saccharomyces cerevisiae with 23 samples.

Results

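Populations of budding yeast (Saccharomyces cerevisiae) in which cells carried different abnormal chromosome sets were compared with a haploid control of normal chromosome number. The comparison took 8 of the 23 libraries of the series and all genes of the count table, which lists 6596 genes. Of these, 6531 had at least 1 count and 6111 had enough counts to be tested. The 8 libraries were the 3 of aneuploid population T1, the 3 of aneuploid population T2 and the 2 of the haploid control, and the contrast was the mean of T1 and T2 minus the haploid control. T1 and T2 came from tetrad dissection, the separation of the spores of single meioses. The labels give the genotype as aneuploid for T1 and T2 and as euploid for the haploid control, and the strain as BY4741, a common laboratory strain, for every library. No group was treated: every culture grew overnight in YPD, a rich glucose medium, and was then given fresh YPD for 4 h at 23 °C in plates of 96 deep wells. T1 and T2 are each 1 mixed population, the labels do not list the karyotypes in them, and they give a mating type for no group. They also do not say whether the libraries of a group came from separate cultures, so the spread behind the p-values below may be technical. A further pair of sets served for comparison, both also labelled BY4741 and untreated: the euploid population from tetrad dissection (3 libraries), and 3 aneuploid populations from a-selection, A1 to A3 (9 libraries, 3 each).

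The question put here is which transcripts differ between the tetrad aneuploids and the haploid control. These groups also differ in mating-type and marker transcripts. The euploid tetrad population differed from the same haploid libraries too, by a median absolute log2 fold change of 1.16, against 0.77 in the tetrad aneuploids. The part of the unbalanced chromosome set in the differences was not tested. In yeast, much of the transcriptome moves along one axis tied to growth and stress. Fast-growing cells put a large part of their mRNA into ribosomal proteins and into the factors that build ribosomes in the nucleolus. Slow-growing, starved or stressed cells carry less of those and more mRNA for heat-shock proteins, redox enzymes, storage carbohydrates and respiration, a programme called the environmental stress response. The transcription factors Msn2 and Msn4 bind the stress response element upstream of many of the induced genes. Genes of ribosome assembly tend to share upstream elements called PAC and RRPE. A second layer of difference comes from mating type. Cells of mating type a and alpha each make their own pheromone and receptor, and a pheromone signal activates Ste12, which binds the pheromone response element.

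The promoters of 6 genes named below show these elements. They were picked among the named genes for the most matches, and on ties for the largest change, so they are not typical. Other named genes held no match. HSP26 and FMP45 lacked the stress response element, RPA12 lacked PAC, and MF(ALPHA)1 and STE3 lacked the pheromone response element. They run from 250 bases before to 50 bases after the coding start in RefSeq's R64 assembly and are written 5′ to 3′ on the gene's strand. The capitals mark every match to the named motif on either strand. In the pair NSR1 (chrVII:807607-807906, - strand), which encodes a nucleolar protein of pre-rRNA processing, and NOG2 (chrXIV:723063-723362, - strand), which encodes a GTPase of the pre-60S particle, the capitals mark PAC (GATGAG) and the longer, T-rich RRPE. PAC begins 187 bases before the coding start of NSR1 and 181 bases before that of NOG2. RRPE begins 207 and 152 bases before these starts.
NSR1: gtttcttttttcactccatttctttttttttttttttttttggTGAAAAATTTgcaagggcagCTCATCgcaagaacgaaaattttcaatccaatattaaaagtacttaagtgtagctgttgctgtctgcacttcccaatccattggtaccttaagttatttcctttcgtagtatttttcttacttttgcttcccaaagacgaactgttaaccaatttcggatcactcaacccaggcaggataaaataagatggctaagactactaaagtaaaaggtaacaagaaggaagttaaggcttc
NOG2: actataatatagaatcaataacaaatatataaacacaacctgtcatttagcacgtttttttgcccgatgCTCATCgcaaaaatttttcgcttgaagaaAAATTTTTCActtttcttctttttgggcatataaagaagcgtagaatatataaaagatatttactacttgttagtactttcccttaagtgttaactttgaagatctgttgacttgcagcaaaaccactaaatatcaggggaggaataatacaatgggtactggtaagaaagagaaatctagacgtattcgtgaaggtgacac
In HSP12 (chrVI:107006-107305, + strand), a small stress protein gene, and NQM1 (chrVII:581387-581686, - strand), a transaldolase gene of stationary phase, the capitals mark the stress response element (AGGGG). The matches begin 232 and 190 bases before the start of HSP12, and 176 and 165 bases before the start of NQM1.
HSP12: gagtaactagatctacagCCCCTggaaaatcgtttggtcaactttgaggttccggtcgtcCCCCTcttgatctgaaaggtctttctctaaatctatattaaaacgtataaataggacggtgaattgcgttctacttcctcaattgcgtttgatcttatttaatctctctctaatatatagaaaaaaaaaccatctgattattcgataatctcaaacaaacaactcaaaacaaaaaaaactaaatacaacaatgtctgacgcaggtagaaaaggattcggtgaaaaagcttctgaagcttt
NQM1: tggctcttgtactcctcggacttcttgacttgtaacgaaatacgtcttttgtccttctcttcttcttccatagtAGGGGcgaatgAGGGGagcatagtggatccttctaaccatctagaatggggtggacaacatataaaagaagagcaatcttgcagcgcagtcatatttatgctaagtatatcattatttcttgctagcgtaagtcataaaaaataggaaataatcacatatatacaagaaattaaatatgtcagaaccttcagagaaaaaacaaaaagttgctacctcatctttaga
In PRM1 (chrXIV:110667-110966, + strand), which encodes a membrane protein of cell fusion in mating, and MF(ALPHA)2 (chrVII:345104-345403, - strand), one of the genes of the pheromone alpha-factor, the capitals mark the pheromone response element (TGAAACA). PRM1 holds 3 matches, starting 181, 170 and 159 bases before the coding start, and MF(ALPHA)2 holds 2, starting at 218 and 201 bases.
PRM1: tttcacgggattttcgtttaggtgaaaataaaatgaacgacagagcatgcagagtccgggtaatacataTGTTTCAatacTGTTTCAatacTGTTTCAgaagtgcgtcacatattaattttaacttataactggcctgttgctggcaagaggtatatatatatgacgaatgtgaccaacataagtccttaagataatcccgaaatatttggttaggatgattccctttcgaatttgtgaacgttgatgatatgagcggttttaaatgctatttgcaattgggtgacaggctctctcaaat
MF(ALPHA)2: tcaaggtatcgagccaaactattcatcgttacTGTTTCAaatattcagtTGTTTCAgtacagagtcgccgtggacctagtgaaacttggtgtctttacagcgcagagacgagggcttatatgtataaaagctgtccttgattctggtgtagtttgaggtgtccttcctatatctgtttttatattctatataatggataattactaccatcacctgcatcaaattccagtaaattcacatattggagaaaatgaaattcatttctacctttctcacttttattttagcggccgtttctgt

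Over all 5913 promoters read this way, 19.8% held PAC, 3.97% RRPE, 21.9% the stress response element and 7.26% the pheromone response element. PAC stood in 90.9% of the 44 promoters of small subunit assembly genes and in 95.8% of the 48 of pre-60S assembly genes, and RRPE in 38.6% and 45.8%. The stress response element stood in 69.2% of the 39 promoters of stress-induced genes, and the pheromone response element in 57.1% of 21 promoters of pheromone-induced genes. The Gcn4 site (TGACTC), bound by the activator of amino acid synthesis genes, stood in 53.4% of 58 promoters of that group, against 8.10% of all. The Hap complex site (CCAAT) stood in 81.1% of 37 respiratory chain promoters, against 43.7% of all. Cytosolic ribosomal protein genes held PAC in 10.9% of 138 promoters. A PAC match can run into a stress response element, because GATGAG ends with the letters with which AGGGG begins. A match is a string of letters, not a measured binding site, and it was not tested against the expression changes.

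The transcriptome of the tetrad aneuploids stood far from that of the haploid control. In edgeR's quasi-likelihood test, 5400 of 6111 genes (88.4%) passed an adjusted p of 0.05, 2691 of them higher (44.0%) and 2709 lower (44.3%). Changes of 2-fold or more took in 1186 higher genes (19.4%) and 1234 lower genes (20.2%). The median absolute log2 fold change was 0.77, and 4878 genes (79.8%) were called with the same sign in T1 and in T2. All 6 aneuploid libraries lay above both haploid libraries for 2505 genes (41.0%) and below both for 2557 (41.8%). Because so many genes were called, a called share of a gene group is read below against these shares, and its median log2 fold change against the median over all tested genes, 0.01.

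The scale of these changes depends on the normalisation and on the unit of replication. Levels are counts scaled per library by the TMM method and given as CPM, which sets the bulk of genes equal between libraries. With library totals alone the median over all genes moved to 0.53 and the split of called genes to 3841 higher and 1688 lower. Where the libraries of each population were summed and the populations taken as the units, 3127 genes were called, 1689 higher and 1438 lower (3737 at an unadjusted p of 0.05). That fit has 3 residual degrees of freedom, and printed counts of rising or falling members that it lowered by more than 1.5 times have its count, or for 1 gene its p, beside them. In bulk RNA, fewer cells of a kind and less RNA per cell cannot be told apart.

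**Figure D1:**
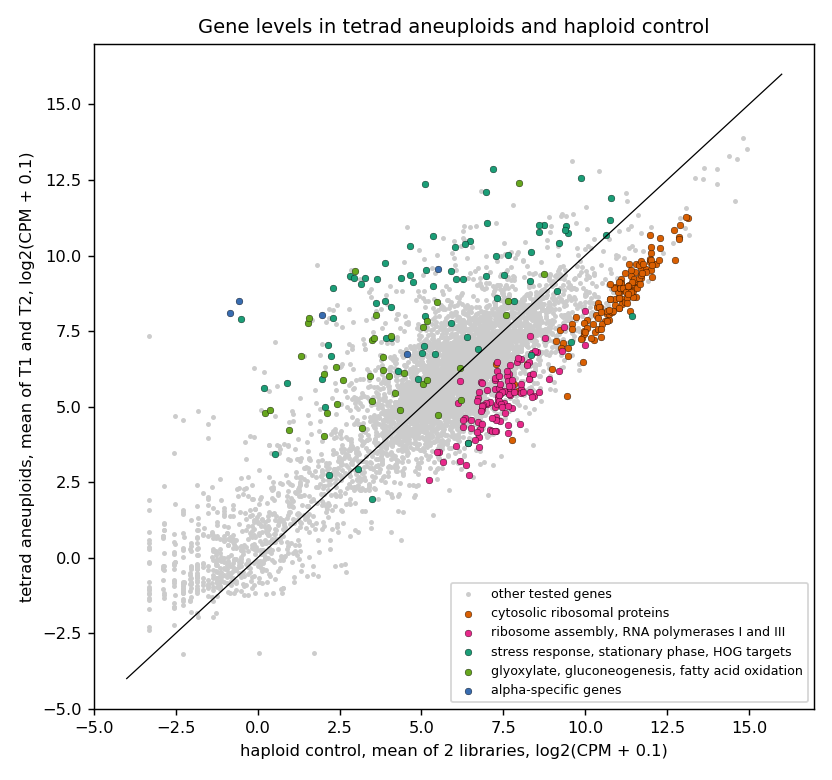
Level of each tested gene in the tetrad aneuploids (mean of T1 and T2, vertical axis) against its level in the haploid control (mean of 2 libraries, horizontal axis), both as log2(CPM + 0.1), with the line of equal level. Points of cytosolic ribosomal proteins (orange) and of ribosome assembly and RNA polymerases I and III (magenta) lie below the line, and most points of the stress (dark green), carbon (light green) and alpha-specific (blue) groups lie above it.

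Total counts ran from 17346662 to 18612028 in T1, from 13025623 to 16101523 in T2 and from 18168994 to 19327344 in the haploid control, and the common biological coefficient of variation between libraries of a group was 5.05%. A few abundant groups took very different shares of the counts. Cytosolic ribosomal protein genes held 6.38% ± 0.075 of the counts in T1 and 9.25% ± 0.30 in T2 (SD, n = 3 each), against 25.8% ± 0.33 in the haploid control (n = 2). By group mean in CPM, which is not scaled by gene length, the most abundant transcript of T1 and T2 was that of TDH3, glyceraldehyde-3-phosphate dehydrogenase, at 19717 CPM in T1 and 10781 CPM in T2, against 29012 CPM in the haploid control. In T2 the elongation factor gene TEF2 was not set apart from TDH3, at 10000.5 ± 5508 CPM (SD, n = 3). HXK1, a hexokinase gene repressed by glucose, ranked among the 10 most abundant in both populations, at 9068 CPM in T1 and 5846 CPM in T2, and stood at 146 CPM in the haploid control.

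Several mating-type and marker genes separated T1 and T2 from the haploid control. The marker genes also bear on the strain label. The alpha-factor gene MF(ALPHA)1 (YPL187W, chrXVI:193648-194145, + strand) was at 406, 403 and 390.4 CPM in T1 and at 341, 316 and 313 CPM in T2, against 0.729 and 0.416 CPM in the haploid control. The alpha-factor gene MF(ALPHA)2 was at 284, 299.6 and 294 CPM in T1 and at 268, 258 and 258 CPM in T2, against 0.292 and 0.624 CPM in the haploid control. Both were abundant in the 6 aneuploid libraries and close to absent in the haploid ones, with log2 fold changes of 9.28 ± 0.12 (SE; edgeR, adjusted p = 1.43e-26) and 9.20 ± 0.14 (adjusted p = 3.49e-25). The 3 other alpha-specific genes were also called higher. STE3, the receptor for the pheromone of a cells, averaged 234 CPM in T1 and 287 CPM in T2, against 3.79 CPM in the haploid control, and it shares 272 bases with an overlapping gene. SAG1, the agglutinin of alpha cells, averaged 839 CPM in T1 and 678 CPM in T2, against 45.1 CPM in the haploid control. Summed over the 5 alpha-specific genes, libraries held 1849 to 1859 CPM in T1 and 1653 to 1687 CPM in T2, against 71.4 to 75.1 CPM in the haploid control.

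Transcripts that mark a cells were present in all 3 groups. STE2, the receptor for alpha-factor, was at 628, 638 and 619 CPM in T1 and at 635, 650.5 and 666 CPM in T2, against 472 and 479 CPM in the haploid control, a log2 fold change of 0.43 ± 0.02 (edgeR, adjusted p = 2.24e-15, and 0.176 with populations as the units). The aneuploid libraries lay above the haploid ones by less than they did for the alpha-specific genes. BAR1, the protease that cleaves alpha-factor, averaged 786 CPM in T1 and 777 CPM in T2, against 125 CPM in the haploid control. AGA2, the binding subunit of a-agglutinin, averaged 428 CPM in T1 and 349 CPM in T2, against 33.0 CPM in the haploid control, and ASG7, an a-specific gene of pheromone signalling, averaged 89.8 CPM in T1 and 71.8 CPM in T2, against 5.79 CPM in the haploid control. BAR1, AGA2 and ASG7 stood higher in each aneuploid library than in either haploid one. The a-factor gene MFA1 was at 239.6, 242 and 239.5 CPM in T1 and at 147, 158 and 148 CPM in T2, against 177 and 171 CPM in the haploid control, so that T2 lay below the haploid control and T1 above it. The call of MFA1 (log2 fold change 0.13, edgeR, adjusted p = 0.042) was lost when any 1 library of T1 was left out (adjusted p = 0.0561 to 0.0637). It was also lost without T2 replicate 2 (adjusted p = 0.098) and without either haploid library (log2 fold change 0.16 and 0.10). All 7 a-specific genes were called higher (median 0.43 on the log2 scale), and with populations as the units 3 were. Their summed level was 2784 to 2812 CPM in T1 and 2607 to 2643 CPM in T2, against 1363 to 1384 CPM in the haploid control. T1 and T2 thus held transcripts of both mating types. The haploid control held those of a cells, with MF(ALPHA)1 and MF(ALPHA)2 below 1 CPM in both libraries.

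Marker genes differed as well. The usual BY4741 genotype lacks URA3 and MET17, lacks LEU2, and carries a partial deletion of HIS3. URA3, orotidine phosphate decarboxylase (YEL021W, chrV:116167-116970, + strand), was at 179, 181 and 183 CPM in T1 and 141, 141 and 140.4 CPM in T2, and had 0 counts in both haploid libraries. Against a floor of 3 counts over the 2 haploid libraries it was at least 1507-fold higher in the aneuploids (edgeR, adjusted p = 5.25e-22, and 0.246 with populations as the units). LEU2, of leucine synthesis, was at 32.3, 31.2 and 35.5 CPM in T1 and 18.7, 19.0 and 17.9 CPM in T2, against 2 counts in the haploid control, a ratio of 371 with a 95% counting interval of 102 to 3061. MET17, of sulfur assimilation, was at 107, 106 and 109.8 CPM in T1 and at 57.9, 63.9 and 60.5 CPM in T2, against 319.6 and 314 CPM in the haploid control. MET17 was thus transcribed in every library and highest in the haploid ones (log2 fold change -1.97 ± 0.035, edgeR, adjusted p = 5.63e-24, and 0.0565 with populations as the units). LYS2, of lysine synthesis, averaged 21.5 ± 0.477 CPM in T1 and 26.1 ± 0.441 CPM in T2 (SD, n = 3 each), against 169.7 ± 1.54 CPM in the haploid control (n = 2), lower in every aneuploid library. HIS3 averaged 32.1 CPM in T1 and 30.3 CPM in T2, against 63.3 CPM in the haploid control. The levels of MET17 go against the usual BY4741 genotype in all 3 groups, and those of URA3 and LEU2 do so in T1 and T2, so the strain label is taken below as the submitters' label only. The part of these genotype differences in the other results was not tested.

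**Figure D2:**
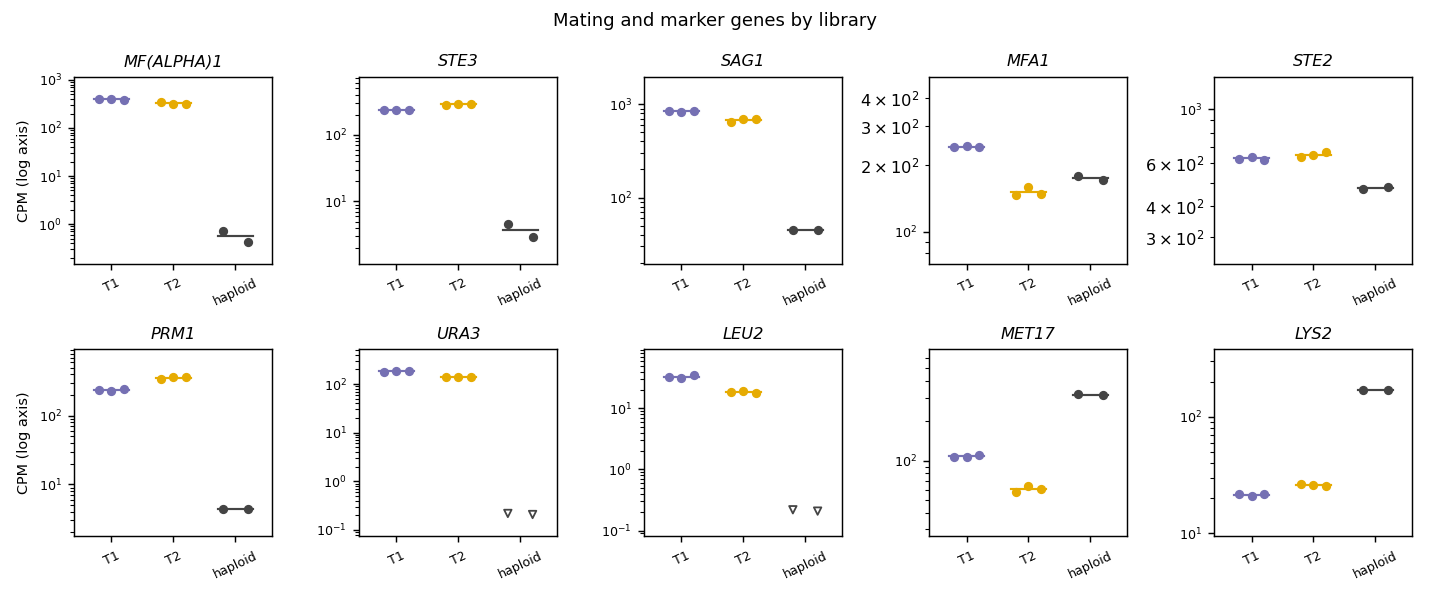
Level in CPM (log axis, each panel with its own range) of 10 mating and marker genes in each library of T1, T2 and the haploid control, with bars at group means above the floor. Open triangles stand for libraries with fewer than 3 counts, drawn at the 3-count floor. The alpha-specific genes MF(ALPHA)1, STE3 and SAG1 are high in T1 and T2 and low in the haploid control, while MET17 and LYS2 run the other way.

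Transcripts of ribosome production were lower in the tetrad aneuploids throughout. NSR1 (YGR159C, chrVII:806412-807656, - strand) was at 19.7, 18.6 and 18.8 CPM in T1 and at 148, 155 and 151 CPM in T2, against 881 and 899 CPM in the haploid control. The 3 groups did not overlap, with T1 lowest, and the log2 fold change was -4.05 ± 0.033 (edgeR, adjusted p = 4.87e-30, and 0.122 with populations as the units). NSR1 shares 584 bases with YGR160W on the other strand. NOG2 (YNR053C, chrXIV:721120-723112, - strand) was at 8.07, 8.69 and 7.36 CPM in T1 and at 26.9, 26.5 and 26.1 CPM in T2, against 198 and 200.3 CPM in the haploid control, again with T1 lowest and all aneuploid libraries below both haploid ones. Its log2 fold change was -3.77 ± 0.057 (adjusted p = 3.43e-25, and 0.0388 with populations as the units).

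All 44 genes of the small subunit processome and 40S assembly fell, 43 of them by 2-fold or more, with a median log2 fold change of -2.34. UTP18, a processome subunit, averaged 4.37 CPM in T1 and 12.1 CPM in T2, against 82.1 CPM in the haploid control (log2 fold change -3.49 ± 0.13), and UTP6, another subunit, averaged 3.56 CPM in T1 and 14.5 CPM in T2, against 72.7 CPM in the haploid control (-3.34 ± 0.085). All 48 tested pre-60S assembly genes fell, each by 2-fold or more, with a median of -2.35. CGR1, of 60S processing, averaged 3.84 CPM in T1 and 21.2 CPM in T2, against 108 CPM in the haploid control (-3.58 ± 0.071, edgeR, adjusted p = 5.99e-23, and 0.091 with populations as the units). With populations as the units, 5 of 44 and 2 of 48 of these genes were called, while their medians stood at -2.08 and -2.17. REX4, a putative exonuclease of pre-rRNA processing outside both lists, fell to 4.61 CPM over T1 and T2, against 56.7 CPM in the haploid control (log2 fold change -3.99 ± 0.12, edgeR, adjusted p = 1.2e-19, and 0.0631 with populations as the units).

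The polymerases that transcribe ribosomal and transfer RNA moved the same way. All 8 genes of the RNA polymerase I list fell, by 3.01 on the log2 scale at the median, and all 10 of RNA polymerase III, by 2.01. RPA49, a polymerase I subunit, was at 9.23, 9.52 and 10.1 CPM in T1 and at 31.8, 34.3 and 32.5 CPM in T2, against 258 and 256 CPM in the haploid control. T1, T2 and the haploid control formed 3 separate levels of RPA49, and its log2 fold change was -3.85 ± 0.066 (edgeR, adjusted p = 3.98e-24, and 0.0542 with populations as the units). RPA12, a small subunit of polymerase I, averaged 3.32 CPM in T1 and 9.92 CPM in T2, against 87.5 CPM in the haploid control (log2 fold change -3.93 ± 0.093). RPC19, shared by polymerases I and III, averaged 5.67 CPM in T1 and 12.2 CPM in T2, against 120.2 CPM in the haploid control (-3.85 ± 0.086), and shares 285 bases with another gene. Of polymerase III, RPC17 averaged 3.22 CPM in T1 and 8.37 CPM in T2, against 37.4 CPM in the haploid control, and RPC82 averaged 13.7 CPM in T1 and 28.9 CPM in T2, against 116 CPM in the haploid control (edgeR, adjusted p = 4.75e-22, and 0.0501 with populations as the units). Of these subunits, 1 of 8 and 5 of 10 were called with populations as the units.

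Cytosolic ribosomal proteins fell as a block: all 138 tested genes were lower, 137 by 2-fold or more, at a median of -2.39 on the log2 scale. The populations fit called 135 of 138. Their log2 fold changes ran from -4.12 to -0.87. RPS28B (YLR264W, chrXII:673131-673334, + strand), a small subunit protein gene, was at 43.9, 43.4 and 41.7 CPM in T1 and at 39.4, 39.9 and 33.4 CPM in T2, against 701 and 695 CPM in the haploid control, with T1 and T2 close together (log2 fold change -4.12 ± 0.039, edgeR, adjusted p = 6.77e-29). RPL22B, one of a pair of large subunit genes, was at 10.6, 11.6 and 10.6 CPM in T1 and at 19.1, 18.0 and 19.1 CPM in T2, against 218 and 214 CPM in the haploid control, with T1 below T2 in every library (-3.91 ± 0.062, adjusted p = 9.02e-25). Many of these genes exist as near-identical pairs whose reads the counting could split either way, so the values of single copies are less certain than the block. Of 28 translation factor genes 26 fell, with a median of -1.53. EFB1, the exchange factor of elongation, averaged 619.5 CPM in T1 and 844 CPM in T2, against 3796 CPM in the haploid control, and TIF4632, an initiation factor eIF4G gene, was the 1 member called higher (log2 fold change 0.33, adjusted p = 2.46e-09, and 0.0714 with populations as the units). TEF2, of the identical pair of elongation factor 1 alpha genes, varied widely between libraries of a group, by an SD of 4536 CPM in T1, 5508 CPM in T2 and 6159 CPM in the haploid control.

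**Figure D3:**
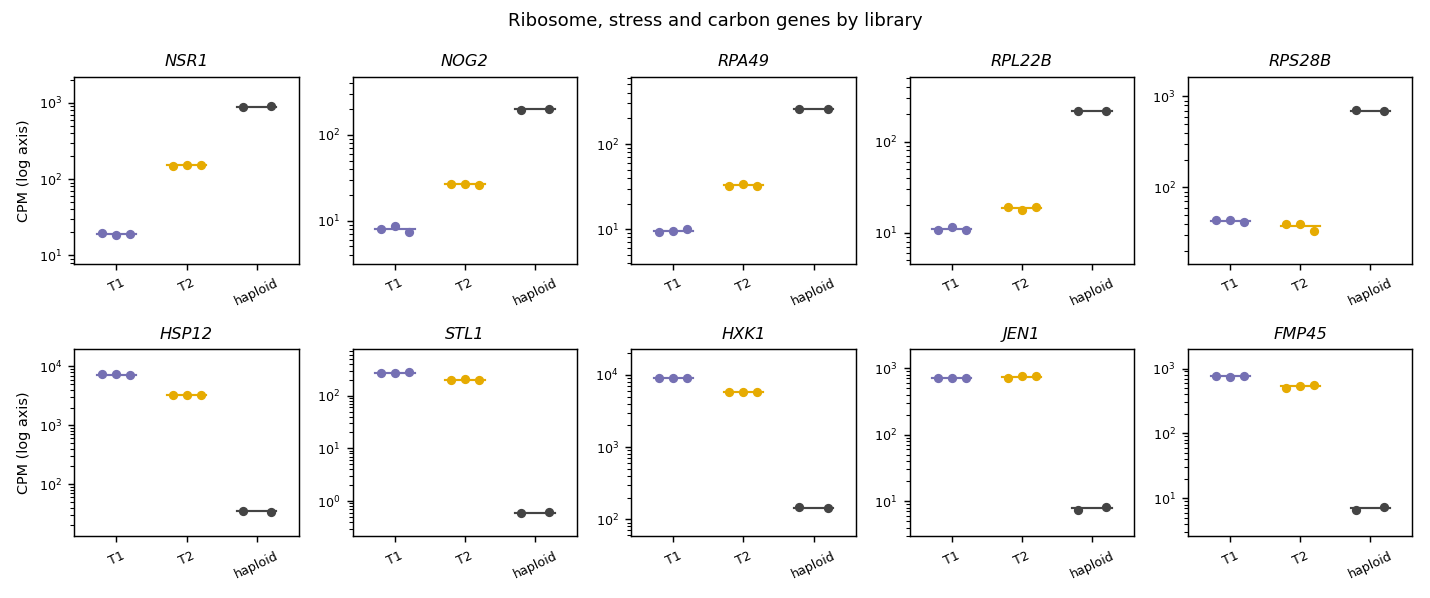
Level in CPM (log axis, each panel with its own range) of 5 ribosome genes (upper row) and 5 stress and carbon genes (lower row) in each library of T1, T2 and the haploid control, with bars at group means. In the upper row every T1 and T2 library lies below both haploid libraries, and T1 lies below T2 except for RPS28B, while in the lower row every T1 and T2 library lies above both.

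Genes of the environmental stress response rose. HSP12 (YFL014W, chrVI:107256-107585, + strand) was at 7335, 7433 and 7160.1 CPM in T1 and at 3280.4, 3266 and 3285 CPM in T2, against 34.8 and 34.0 CPM in the haploid control. T1 was highest, the haploid libraries were far below both populations, and the log2 fold change was 7.15 ± 0.053 (edgeR, adjusted p = 1e-30). Of 39 genes induced in the stress response 37 rose, 34 by 2-fold or more, with a median log2 fold change of 3.12. FMP45, of the plasma membrane, was at 754, 747 and 774 CPM in T1 and at 494, 539.9 and 552 CPM in T2, against 6.57 and 7.35 CPM in the haploid control (log2 fold change 6.50 ± 0.06), and CTT1, the cytosolic catalase, averaged 2078 CPM in T1 and 1118 CPM in T2, against 40.5 CPM in the haploid control. The 1 gene called lower, the thioredoxin gene TRX2, had a log2 fold change of -0.30 (adjusted p = 2.2e-07, and 0.171 with populations as the units) that turned to 0.22 with library totals alone.

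Hydrophilin and stationary phase genes rose in 16 of 19 cases, with a median of 2.90. NQM1 was at 1062, 1080.0 and 1062 CPM in T1 and at 666, 643 and 639.8 CPM in T2, against 14.2 and 15.3 CPM in the haploid control, higher in every aneuploid library (log2 fold change 5.82 ± 0.038, edgeR, adjusted p = 9.08e-32). SPG4, needed in stationary phase, averaged 278 CPM in T1 and 208 CPM in T2, against 4.78 CPM in the haploid control. HSP30, a membrane heat-shock protein, averaged 163 CPM in T1 and 43.6 CPM in T2, against 324 CPM in the haploid control, and had a log2 fold change of -1.94 ± 0.032 (adjusted p = 1.43e-24, and 0.101 with populations as the units). Targets of the osmotic stress pathway (HOG) rose in 20 of 23 cases, with a median of 3.57. The glycerol symporter STL1 (YDR536W, chrIV:1508005-1509714, + strand) was at 271, 274 and 276 CPM in T1 and at 196, 206 and 201 CPM in T2, against 0.584 and 0.624 CPM in the haploid control, a log2 fold change of 8.58 ± 0.053 (adjusted p = 4.46e-32). The glycerol phosphatase GPP1 went the other way, at 241 CPM in T1 and 270.1 CPM in T2, against 2759.9 CPM in the haploid control (-3.44 ± 0.017). The 42 lists share 33 genes among them, HSP12 and CTT1 included, so neighbouring lists are not independent.

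Storage carbohydrate genes rose in 19 of 20 cases, each by 2-fold or more, with a median log2 fold change of 2.54. GPH1, glycogen phosphorylase, averaged 2572 CPM in T1 and 1345 CPM in T2, against 23.6 CPM in the haploid control (log2 fold change 6.30 ± 0.036), and GAC1, which directs a phosphatase to glycogen synthase, averaged 383 CPM in T1 and 281 CPM in T2, against 5.20 CPM in the haploid control (5.98 ± 0.055). TPS1, trehalose phosphate synthase, averaged 2793 CPM in T1 and 2242 CPM in T2, against 687 CPM in the haploid control. PGM1, the minor phosphoglucomutase, was the 1 member that fell (-1.45 ± 0.029). Autophagy and vacuolar protease genes rose in 27 of 30 cases, with a median of 1.58, led by ATG39, a receptor for the autophagy of endoplasmic reticulum and nucleus, at 114 CPM in T1 and 125 CPM in T2, against 9.55 CPM in the haploid control. ATG5, of the conjugation machinery, fell (-1.03 ± 0.034).

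Transcripts for growth on carbon sources other than glucose were higher. All 22 genes of the glyoxylate cycle, gluconeogenesis and two-carbon use rose, 19 of them by 2-fold or more, with a median log2 fold change of 3.51. The lactate and pyruvate permease gene JEN1 (YKL217W, chrXI:22234-24084, + strand) was at 717, 711 and 704 CPM in T1 and at 714, 753 and 756 CPM in T2, against 7.44 and 8.05 CPM in the haploid control, similar in T1 and T2 and far above both haploid libraries (6.55 ± 0.039, edgeR, adjusted p = 2.64e-32). CAT8, the activator of gluconeogenic genes, was at 256, 252 and 261 CPM in T1 and at 226, 229.9 and 227 CPM in T2, against 2.55 and 3.19 CPM in the haploid control (6.39 ± 0.055). ICL1, isocitrate lyase, averaged 171 CPM in T1 and 288 CPM in T2, against 35.7 CPM in the haploid control, and PCK1, phosphoenolpyruvate carboxykinase, averaged 171 CPM in T1 and 135 CPM in T2, against 11.6 CPM in the haploid control. Peroxisomal fatty acid oxidation genes rose in 14 of 16 cases, with a median of 1.42, among them the thiolase gene POT1 at 119.7 CPM in T1 and 84.2 CPM in T2, against 2.38 CPM in the haploid control. The peroxisomal nucleotide carrier gene ANT1 fell (-0.99 ± 0.051).

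Of 16 tested hexose transporter genes 13 rose and 2 fell (11 and 0 with populations as the units), 15 of them by 2-fold or more, with a median of 2.09. HXT2, a high-affinity transporter, averaged 5855 CPM in T1 and 8272 CPM in T2, against 1375 CPM in the haploid control, and HXT5 averaged 476 CPM in T1 and 415 CPM in T2, against 10.5 CPM in the haploid control. The low-affinity transporters went the other way: HXT3 was at 263, 260.3 and 276 CPM in T1 and at 425, 427 and 423 CPM in T2, against 1586 and 1599.8 CPM in the haploid control (-2.24 ± 0.023, edgeR, adjusted p = 1.82e-28, and 0.0557 with populations as the units), and HXT1 averaged 115 CPM in T1 and 260.3 CPM in T2, against 449.6 CPM in the haploid control (-1.38 ± 0.041, adjusted p = 1.85e-19, and 0.205 with populations as the units). HXT13 averaged 33.6 CPM in T1 and 23.6 CPM in T2, against 0.181 CPM in the haploid control, a level set by 5 counts. HXT15 had 0 counts in the haploid control and was at least 7.32-fold higher in the aneuploids, against a floor of 3 counts over both haploid libraries, and its call was lost when either haploid library was left out (edgeR, adjusted p = 0.0811 and 0.089) and with populations as the units (adjusted p = 0.11). HXT13, HXT15, HXT16 and HXT17 are similar in sequence, so reads may be split between them. DSF1, a gene next to HXT13 with a near-identical copy elsewhere, was at 151, 151 and 151 CPM in T1 and at 198, 92.4 and 92.8 CPM in T2, against 1.39 and 1.32 CPM in the haploid control, with 1 T2 library well above the other two.

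Glycolysis split. Of 17 genes 12 fell and 5 rose (8 and 3 with populations as the units), with a median of -1.14. ENO2, the main enolase, was at 3889.6, 4394 and 3920.4 CPM in T1 and at 3048, 3269 and 3133 CPM in T2, against 23927 and 25208 CPM in the haploid control (-2.78 ± 0.033, edgeR, adjusted p = 2.96e-27), lower in all 6 aneuploid libraries. HXK1, by contrast, was at 9041, 9008 and 9156 CPM in T1 and at 5878, 5828 and 5830.5 CPM in T2, against 148 and 143 CPM in the haploid control (5.64 ± 0.031, adjusted p = 7.19e-33). Of 8 fermentation genes 5 fell and 3 rose (1 and 2 with populations as the units), with a median of -0.31 that turned to 0.21 with library totals alone. PDC1, pyruvate decarboxylase, averaged 9222 CPM in T1 and 9355 CPM in T2, against 25578 CPM in the haploid control (adjusted p = 9.33e-23, and 0.0542 with populations as the units), and ALD6, the cytosolic acetaldehyde dehydrogenase, averaged 8009.5 CPM in T1 and 9701 CPM in T2, against 775 CPM in the haploid control (3.51 ± 0.03).

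Mitochondrial functions rose more moderately. Of 15 tricarboxylic acid cycle genes 11 rose and 4 fell (8 and 2 with populations as the units), with a median of 1.07. SDH1, the flavoprotein of succinate dehydrogenase, was at 949, 957 and 978 CPM in T1 and at 486, 532 and 537 CPM in T2, against 65.6 and 67.5 CPM in the haploid control (3.41 ± 0.039, edgeR, adjusted p = 1.47e-27), with T2 between T1 and the haploid control. IDH1, isocitrate dehydrogenase, fell (-0.87 ± 0.026). Of 37 respiratory chain and ATP synthase genes 33 rose, with a median of 0.79, and 14 were called higher with populations as the units. The isoforms of cytochrome c went in opposite directions, CYC7 at 399 CPM in T1 and 289 CPM in T2, against 12.2 CPM in the haploid control (4.81 ± 0.075), and CYC1 at 24.4 CPM in T1 and 16.2 CPM in T2, against 45.5 CPM in the haploid control (-1.19 ± 0.065, adjusted p = 3e-14, and 0.0512 with populations as the units). Mitochondrial ribosomal protein genes rose in 53 of 67 cases by small amounts (median 0.33, 6 by 2-fold or more), against the fall of all 138 cytosolic ones, and 29 of 67 were called higher with populations as the units.

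**Figure D4:**
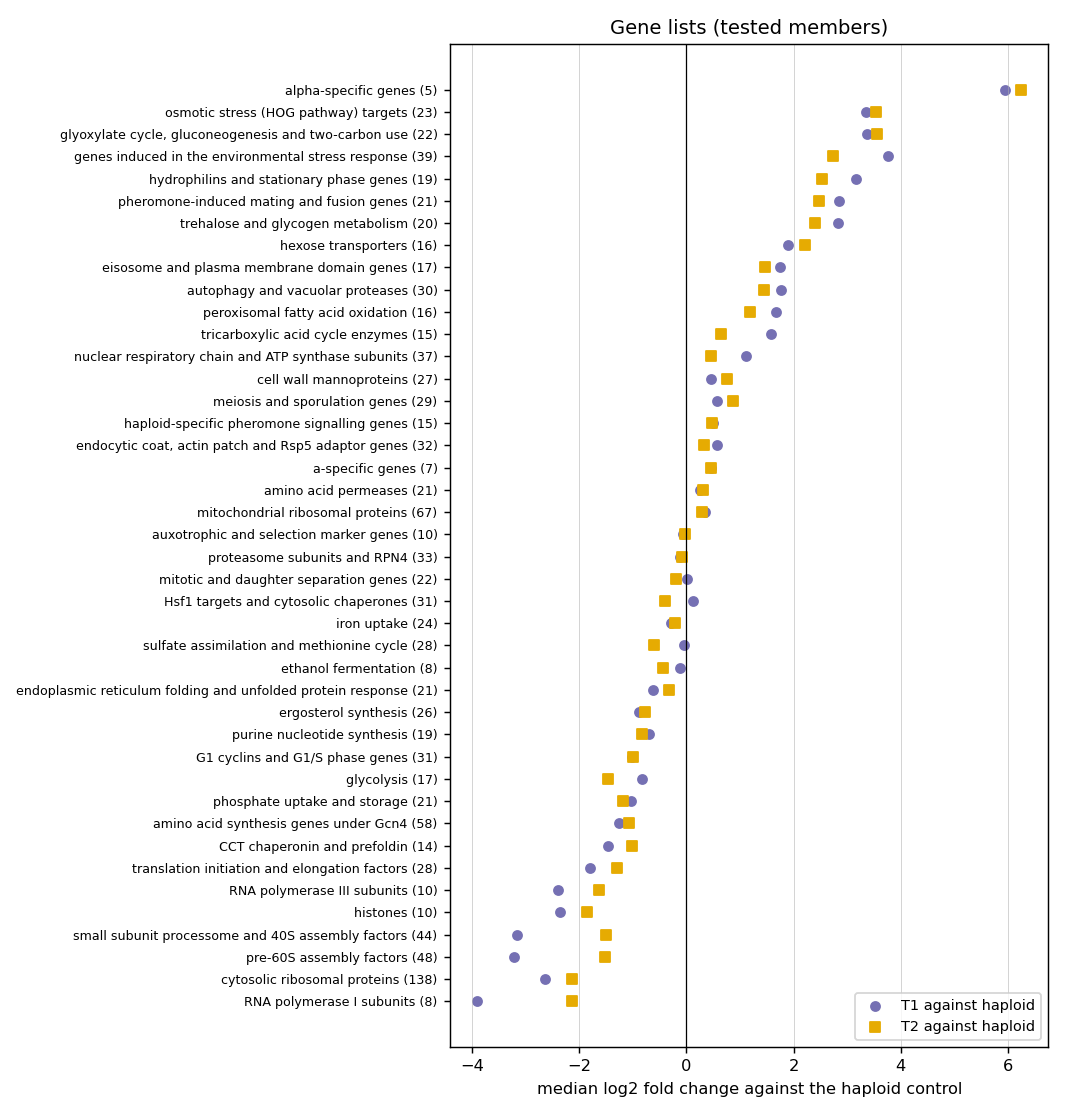
Median log2 fold change against the haploid control over the tested members of each of the 42 gene lists, for T1 (circles) and T2 (squares), with the number of tested members in brackets. Alpha-specific, osmotic stress, glyoxylate and stress response lists lie highest, ribosome and histone lists lowest, and both populations lie on the same side of 0 for every list except Hsf1 targets and mitotic genes.

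Protein folding and degradation genes did not move as one group. Of 31 Hsf1 targets and cytosolic chaperones 12 rose and 18 fell (4 and 8 with populations as the units), and their median of -0.14 turned to 0.38 with library totals alone and to 0.12 in T1 alone. SSB1, the ribosome-associated Hsp70, averaged 399.9 CPM in T1 and 746 CPM in T2, against 3849 CPM in the haploid control (-2.82 ± 0.026). It has a near-identical copy, SSB2, and shares 630 bases with YDL228C. HSP26, a small heat-shock protein, was at 1079.9, 1079.9 and 1055 CPM in T1 and at 421, 392 and 393 CPM in T2, against 35.5 and 35.4 CPM in the haploid control (4.21 ± 0.037, edgeR, adjusted p = 1.9e-29), far higher in T1 and T2. All 14 genes of the CCT chaperonin and prefoldin, which fold actin and tubulin, fell, with a median of -1.24, among them CCT5 at 93.1 CPM in T1 and 132 CPM in T2, against 402 CPM in the haploid control. The median of proteasome genes, -0.10, lay near that over all genes, 0.01, but their calls leaned to the lower side. Of 33 members 21 were called lower and 5 higher, against 44.3% and 44.0% of all tested genes. Their median turned to 0.42 with library totals alone, and 1 member was called in each direction with populations as the units. RPN4, the activator of proteasome genes, was at 505, 496 and 496 CPM in T1 and at 522, 518 and 512 CPM in T2, against 215 and 222 CPM in the haploid control (1.22 ± 0.024, adjusted p = 5.52e-23), higher in every aneuploid library. Of 21 endoplasmic reticulum folding genes 17 fell, with a median of -0.48 that turned to 0.04 with library totals alone, and 6 were called lower with populations as the units. SEC63, of the translocation channel, fell to 61.1 CPM in T1 and 85.2 CPM in T2, against 275 CPM in the haploid control.

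Genes of the cell surface were mostly higher, and amino acid permeases were divided. Of 17 eisosome and plasma membrane domain genes 15 rose, with a median of 1.67, led by FMP45 and MDG1. Of 32 endocytic coat, actin patch and Rsp5 adaptor genes 27 rose, with a median of 0.45, and 15 did so with populations as the units. CSR2, an adaptor that brings the ubiquitin ligase Rsp5 to membrane proteins, was at 610.3, 596 and 606 CPM in T1 and at 584, 589 and 588 CPM in T2, against 8.24 and 9.16 CPM in the haploid control (6.09 ± 0.039, edgeR, adjusted p = 8.53e-32). The proline permease gene PUT4 (YOR348C, chrXV:986899-988782, - strand) was at 422, 426 and 439 CPM in T1 and at 520.0, 573 and 558 CPM in T2, against 5.18 and 4.51 CPM in the haploid control (6.65 ± 0.056, adjusted p = 7.87e-30), and BAP3, a permease for branched-chain amino acids, averaged 89.9 CPM in T1 and 129 CPM in T2, against 346 CPM in the haploid control (-1.68 ± 0.033). Over 21 amino acid permeases 12 rose and 8 fell (7 and 4 with populations as the units). Of 27 cell wall mannoprotein genes 19 rose (10 with populations as the units), led by the agglutinin anchor AGA1 at 979 CPM in T1 and 1100.0 CPM in T2, against 44.7 CPM in the haploid control, and by PIR3 at 299.6 CPM in T1 and 185 CPM in T2, against 11.5 CPM in the haploid control. Of 26 ergosterol synthesis genes 22 fell, with a median of -0.85, among them the desaturase gene ERG3 at 123 CPM in T1 and 199.5 CPM in T2, against 801 CPM in the haploid control.

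Nutrient synthesis and uptake genes were mostly lower. Of 58 amino acid synthesis genes under the activator Gcn4, 52 fell, 32 of them by 2-fold or more, with a median of -1.17, and 32 were called lower with populations as the units. HIS1, of the first step of histidine synthesis, was at 42.6, 41.2 and 39.5 CPM in T1 and at 70.7, 71.7 and 68.2 CPM in T2, against 539.9 and 526 CPM in the haploid control (-3.31 ± 0.056, edgeR, adjusted p = 2.82e-24), and GCN4 itself averaged 626 CPM in T1 and 474 CPM in T2, against 1448 CPM in the haploid control (-1.41 ± 0.022). BAT2, the cytosolic branched-chain aminotransferase, rose (1.03 ± 0.023). Of 19 purine genes 13 fell and 5 rose (3 and 1 with populations as the units), with a median of -0.94, led by IMD4, of guanine nucleotide synthesis (-2.59 ± 0.033). Of 21 phosphate genes 18 fell, with a median of -1.15, among them PHM6 at 0.911 CPM in T1 and 1.91 CPM in T2, against 20.7 CPM in the haploid control. PHO84, the high-affinity phosphate transporter, averaged 107 CPM in T1 and 41.4 CPM in T2, against 894 CPM in the haploid control, and lies wholly within the span of a noncoding transcript, so the strand behind its reads is not known. Of 24 iron uptake genes 12 fell and 9 rose (8 and 4 with populations as the units), their median of -0.17 turning to 0.35 with library totals alone. FRE1, a metal reductase, fell by the most (-3.55 ± 0.036). Of 28 sulfate assimilation and methionine cycle genes 15 fell and 9 rose, with a median of -0.24 that turned to 0.28 with library totals alone and 8 called lower with populations as the units. SAM4 and CYS3 led the fall, at -2.59 ± 0.036 and -2.16 ± 0.024.

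Genes of the mating response were higher. PRM1 (YNL279W, chrXIV:110917-112902, + strand) was at 239.6, 232 and 242 CPM in T1 and at 339, 365 and 369 CPM in T2, against 4.38 and 4.44 CPM in the haploid control, with T2 highest (6.05 ± 0.07, edgeR, adjusted p = 2.23e-27). FUS1, of cell fusion, averaged 297 CPM in T1 and 488 CPM in T2, against 10.8 CPM in the haploid control, and PRM6, a pheromone-regulated membrane protein, averaged 17.4 CPM in T1 and 25.1 CPM in T2, against 0.246 CPM in the haploid control. Of 21 pheromone-induced genes 19 rose, 17 by 2-fold or more, with a median of 2.69. Their summed level was 3958 to 4035 CPM in T1 and 4534 to 4772 CPM in T2, against 1283 to 1297 CPM in the haploid control. Markers of alpha cells moved with them, at the summed levels of the 5 alpha-specific genes given above, and their part in the rise was not tested. Of 15 haploid-specific signalling genes 11 rose and 4 fell (7 and 2 with populations as the units), with a median of 0.50. The kinase gene FUS3 was at 239.7, 232 and 239 CPM in T1 and at 216, 241 and 239 CPM in T2, against 77.3 and 76.9 CPM in the haploid control (1.60 ± 0.058, adjusted p = 9.77e-18), and STE12, the pheromone response factor, averaged 185 CPM in T1 and 375 CPM in T2, against 92.1 CPM in the haploid control (1.52 ± 0.034, adjusted p = 5.79e-22, and 0.0603 with populations as the units).

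Meiosis and sporulation genes, which mark diploid cells that left mitotic growth, stood at low levels but were mostly higher in the tetrad aneuploids. Summed over the list they held 286 to 293 CPM in T1 and 289.7 to 301 CPM in T2, against 153 to 157 CPM in the haploid control. Of 29 tested genes 19 were called higher, 12 of them by 2-fold or more, and 3 lower (13 and 0 with populations as the units), with a median log2 fold change of 0.60. IME1, the master inducer of meiosis, averaged 14.4 CPM in T1 and 12.9 CPM in T2, against 14.8 CPM in the haploid control with no call (log2 fold change -0.12 ± 0.074, edgeR, adjusted p = 0.158), and NDT80, of the meiotic divisions, averaged 6.44 CPM in T1 and 6.63 CPM in T2, against 5.08 CPM in the haploid control (0.36 ± 0.15). SPS100, of the spore wall, averaged 22.7 CPM in T1 and 31.0 CPM in T2, against 2.01 CPM in the haploid control, but it shares 946 bases with a noncoding gene on the other strand, so the source of its reads is not known. IME4, an RNA methyltransferase gene, was at 25.5, 26.0 and 28.8 CPM in T1 and 18.5, 19.4 and 21.1 CPM in T2, against 3 counts in the haploid control, a ratio of 220 with a counting interval of 75.3 to 1069. IME4 lies wholly within the span of a noncoding transcript, and without strand the pair cannot be told apart. MEK1, a meiotic kinase gene, also had 3 counts in the haploid control, and its ratio was 24.8 with an interval of 8.40 to 121.

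Genes of the start of the cell cycle were lower, while mitotic genes were divided. Of 31 genes of G1 and the start of S phase 24 fell and 4 rose (19 and 2 with populations as the units), with a median of -1.09. RNR1, the large subunit of ribonucleotide reductase, was at 34.2, 32.8 and 31.8 CPM in T1 and at 39.1, 40.5 and 37.1 CPM in T2, against 409.7 and 398 CPM in the haploid control (-3.50 ± 0.035, edgeR, adjusted p = 1.42e-28), low in all 6 aneuploid libraries. The G1 cyclin gene CLN2 averaged 32.5 CPM in T1 and 39.6 CPM in T2, against 119 CPM in the haploid control. PCL2, a cyclin gene that is also pheromone-induced, rose (1.81 ± 0.046). All 10 histone genes fell, 9 of them by 2-fold or more, with a median of -2.11, and the near-identical pair HTA1 and HTA2 averaged 243 and 209 CPM in the aneuploids, against 1274 and 1105 CPM in the haploid control. Of 22 mitotic and daughter separation genes 11 fell and 8 rose (4 and 4 with populations as the units), with a median of -0.11 that turned to 0.41 with library totals alone and to 0.01 in T1 alone. The mitotic cyclin gene CLB2 averaged 34.0 CPM in T1 and 35.2 CPM in T2, against 59.4 CPM in the haploid control (-0.78 ± 0.06), and SIC1, the inhibitor of S phase cyclins, rose (1.09 ± 0.029).

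Among the genes that fell furthest, several belong to none of these lists. TPO2, a polyamine exporter gene, was at 8.40, 24.4 and 8.69 CPM in T1 and at 12.7, 12.8 and 11.3 CPM in T2, against 339 and 345 CPM in the haploid control (-4.71 ± 0.28, edgeR, adjusted p = 1.93e-13), and 1 T1 library stood above the other two. The neighbouring genes PRM7 and BSC1 on chromosome IV fell together, PRM7 to 17.6 CPM in T1 and 20.0 CPM in T2, against 289.9 CPM in the haploid control, and BSC1 to 5.80 and 6.77 CPM, against 95.9 CPM. At the other end, 413 genes (6.76%) were called in none of T1, T2 and their mean. CRM1, the nuclear export receptor, averaged 293 CPM in T1 and 282 CPM in T2, against 279 CPM in the haploid control (log2 fold change 0.04 ± 0.032, edgeR, adjusted p = 0.239). DSK2, a ubiquitin receptor gene, had a log2 fold change of 0.06 ± 0.028 (adjusted p = 0.0668), and RPT4, a proteasome ATPase, 0.01 ± 0.019 (adjusted p = 0.745). At library totals alone these 3 stood at 0.56, 0.58 and 0.53, close to the median over all genes there.

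The populations were not alike in the size of the change. Against the same haploid libraries 5404 genes were called in T1 (88.4%) and 5273 in T2 (86.3%), and the median absolute log2 fold change was 0.86 in T1 and 0.69 in T2. The difference itself, T2 minus T1, in which the haploid libraries cancel, was called for 4220 genes (69.1%), 2192 of them higher in T2 (35.9%) and 2028 lower (33.2%). By 2-fold or more, 353 genes were higher in T2 (5.78%) and 72 lower (1.18%). T2 and T1 are 1 population each, so this test sets these libraries apart and does not measure how populations vary.

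Ribosome genes were higher in T2 than in T1, and stress and respiratory genes lower. All 44 small subunit, 48 pre-60S, 8 polymerase I and 10 polymerase III genes were called higher in T2, with median log2 differences of 1.58, 1.77, 1.61 and 0.94, and 129 of 138 ribosomal protein genes with a median of 0.48. NSR1 had the largest difference by the naming rule, at 152 ± 3.61 CPM in T2 against 19.0 ± 0.558 CPM in T1 (SD, n = 3 each; log2 difference 2.99 ± 0.042, edgeR, adjusted p = 1.2e-23). TRM11, a transfer RNA methyltransferase gene, was at 33.9 ± 0.696 CPM in T2 against 5.14 ± 0.0977 CPM in T1, and AAH1, adenine deaminase, at 144 ± 4.01 against 23.9 ± 0.938 CPM. Of 39 stress response genes 36 were lower in T2 (median -0.63), as were all 15 tricarboxylic acid cycle genes (-0.65), 36 of 37 respiratory chain genes (-0.60) and 26 of 31 Hsf1 targets (-0.44). SSA4, an inducible Hsp70, was at 195 ± 7.07 CPM in T2 against 989 ± 5.87 CPM in T1 (-2.34 ± 0.027, adjusted p = 5.88e-25), and HSP30 at 43.6 ± 0.763 against 163 ± 4.28 CPM. Glyoxylate and gluconeogenesis genes were divided, 9 of 22 higher in T2 and 9 lower (median 0.01).

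**Figure D5:**
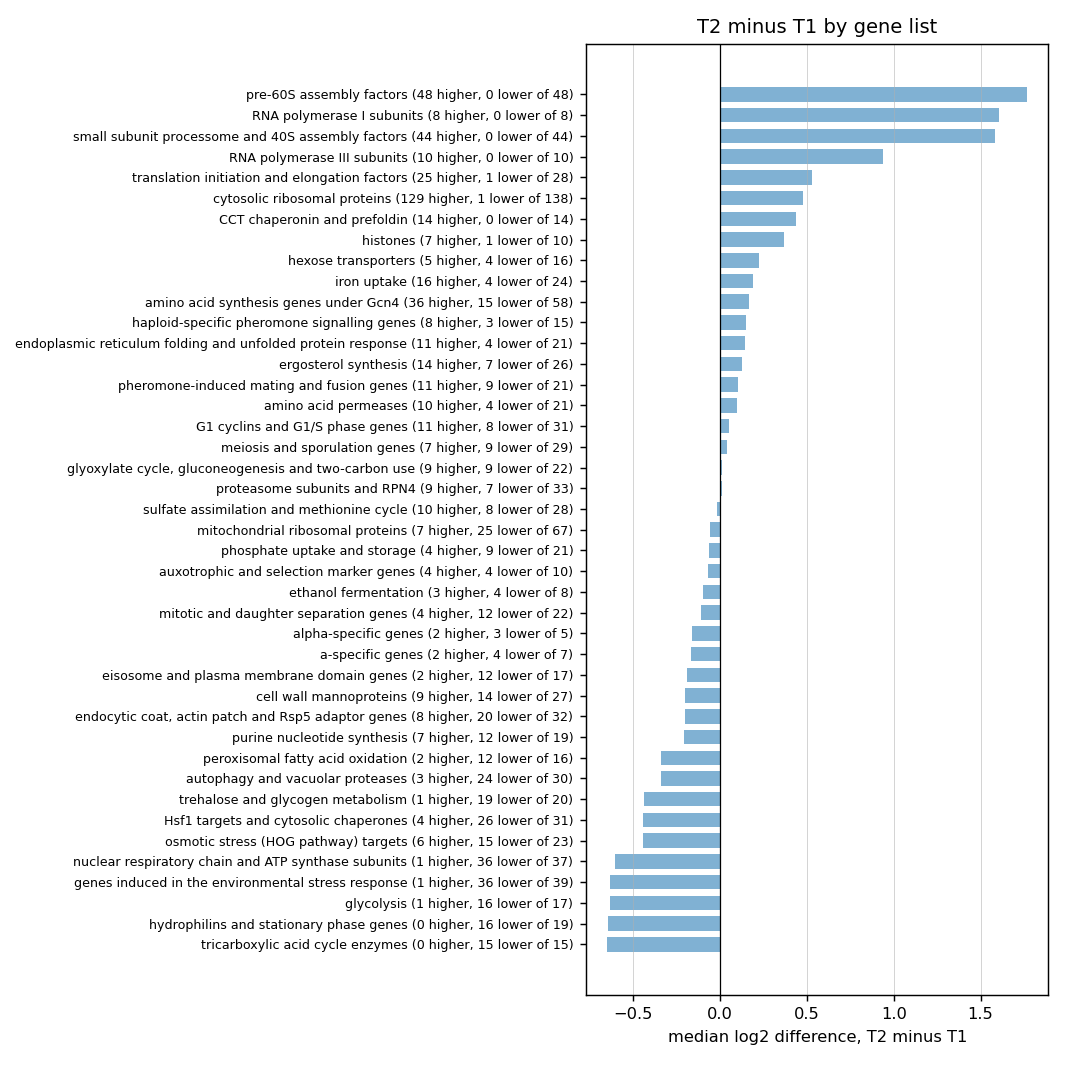
Median log2 difference between T2 and T1 (T2 minus T1) over the tested members of each gene list, with the number of members called higher and lower in T2 in brackets. Bars of ribosome lists reach furthest to the right, up to 1.77, and those of stress, glycolysis and tricarboxylic acid cycle lists furthest to the left, down to -0.65.

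In 105 genes (1.72%) T1 and T2 were called with opposite signs against the haploid control. ADE17, of purine synthesis, averaged 321 CPM in T1 and 114 CPM in T2, against 150.1 CPM in the haploid control, so that T1 lay above the haploid libraries and T2 below them. BTN2, a protein sorting factor induced by heat, and CPR6, a cyclophilin of the Hsp90 system, did the same. The uracil permease gene FUR4 lay below the haploid control in T1 and above it in T2, at 21.3 CPM in T1 and 44.9 CPM in T2, against 27.5 CPM in the haploid control, and IMD2 and THI7 followed it. With library totals alone ADE17, BTN2 and CPR6 lay above the haploid control in T2 as well, at 0.18, 0.09 and 0.25, and FUR4 and IMD2 above it in T1, at 0.10 and 0.01. The log2 difference between T2 and T1 was -1.5 ± 0.032 for ADE17 (edgeR, adjusted p = 1.01e-20) and 1.08 ± 0.067 for FUR4 (adjusted p = 1.34e-12).

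The other comparisons against the same 2 haploid libraries give the scale, and since they share those libraries only their values are set side by side. Among 6111 genes 5459 were called in the a-selection aneuploids (89.3%, with 44.5% higher and 44.8% lower), and 5540 in the euploid tetrad population (90.7%, with 47.1% higher and 43.6% lower). The median absolute log2 fold change was 0.77 in the tetrad aneuploids, 0.83 in the a-selection aneuploids and 1.16 in the euploid tetrad population. Pre-60S genes had a median of -2.35 in the tetrad aneuploids, -2.50 in the a-selection aneuploids and -6.71 in the euploid tetrad population. Ribosomal protein genes had medians of -2.39, -2.56 and -4.96 in the same order, and stress response genes of 3.12, 3.72 and 4.54. Glyoxylate and gluconeogenesis genes had medians of 3.51, 4.73 and 6.63. Pheromone-induced genes had medians of 2.69, 0.74 and 5.72. Alpha-specific genes had medians of 6.10, 0.55 and 8.04. In each of these 6 lists the median of the euploid tetrad population was the furthest from 0, and the difference of the aneuploids from it was not tested.

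Set directly against the a-selection aneuploids, a contrast in which the haploid libraries cancel, the tetrad aneuploids differed in 4506 genes (73.7%), 2088 of them higher (34.2%) and 2418 lower (39.6%). Few of these differences were large: 91 genes were higher by 2-fold or more (1.49%) and 44 lower (0.720%), and the median absolute difference was 0.18. With populations as the units 28 genes were called, 27 of them higher (870 at an unadjusted p of 0.05). All 5 alpha-specific, all 7 a-specific and all 21 pheromone-induced genes were higher, with median log2 differences of 5.15, 0.93 and 1.46, and 5, 2 and 8 of them were called with populations as the units. MF(ALPHA)1 was at 399 ± 8.05 CPM in T1 and 323 ± 15.2 CPM in T2, against 0.942 ± 0.0644, 0.588 ± 0.232 and 1.65 ± 0.6 CPM in A1, A2 and A3 (SD, n = 3 each; log2 difference 8.49 ± 0.055, edgeR, adjusted p = 4.3e-31). Respiratory chain genes were lower in all 37 cases (median -0.29), and glyoxylate and gluconeogenesis genes in 21 of 22 (median -0.68), but 0 genes of either list were called with populations as the units. FBP1, fructose bisphosphatase, was at 70.6 CPM in T1 and 88.2 CPM in T2, against 399, 272 and 189.7 CPM in A1, A2 and A3 (-1.80 ± 0.024, adjusted p = 4.02e-25, and 0.197 with populations as the units). Alpha-cell markers moved with the pheromone genes in this contrast too, and their part in it was not tested.

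By chromosome, the median log2 fold change of the tetrad aneuploids against the haploid control ran from -0.24 on chromosome XV (556 genes) to 0.34 on chromosome IX (224 genes). Chromosomes I, III and XI stood at 0.29, 0.24 and 0.20, and chromosomes IV and XIV at -0.12 and -0.13. In T1 chromosome IX was at 0.43 and chromosome XV at -0.28, and in T2 they were at 0.25 and -0.19. These medians describe mixed populations of cells and were not tested. With library totals alone all 16 medians rose, to between 0.28 and 0.86, with chromosome XV still lowest and chromosome IX highest. With TMM scaling, the euploid tetrad population had medians against the same haploid libraries of 0.34, 0.35, 0.27 and 0.19 on chromosomes IX, I, III and XI. Its medians on chromosomes IV, XIV and XV were 0.12, -0.065 and 0.0082. The differences of the aneuploids from it were not tested.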

How the data were processed

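Per the labels' protocols, total RNA was extracted with a MasterPure yeast kit and sequenced, and the authors deposited raw counts per gene. The submitters' processing notes list the aligner HISAT2 2.0.5 and the counter HTSeq 0.6.1p1, beside FastQC 0.11.5, bcl2fastq 2.17.1.14, DESeq2 1.14.1 and the R64 build. Settings for strand and for reads with several matches are not stated there or in the labels. Overlapping, antisense and near-identical genes are therefore uncertain, among them HXK1, GPH1, EFB1, IMD4, CPR6, STE3 and SPS100, which share bases with a neighbour. The 3 value columns used of the authors' deposited DESeq2 table hold gene coordinates, and its fold changes were not used.

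The deposited counts of all 23 libraries went into 1 model in edgeR 4.0.16 under R 4.3.3, with limma 3.58.1: TMM scaling, filterByExpr over 8 groups, 1 coefficient per group and the quasi-likelihood test with 15 residual degrees of freedom and Benjamini-Hochberg adjustment over 6111 genes. A gene was called at an adjusted p under 0.05. SE is the log2 fold change divided by the root of its F statistic. Intervals and floors cover counting error only. The population fit takes summed libraries as units. There the haploid control and each euploid population of the series are 1 unit each, so the spread comes only from T1 and T2 and from A1 to A3. The haploid control is thus assumed to vary like these mixed aneuploid populations. DESeq2 1.42.0 and other scalings were alternatives.

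The gene lists and the members were chosen with earlier results of these data known. Named genes are the 10 largest called changes per direction with an average log2 CPM of 3 or more and no overlap between groups, and the 2 leading called members of each list with the 1 called furthest the other way. The naming rule also took in all alpha-specific, a-specific and marker genes. It took in the 4 largest called differences per direction of T2 minus T1 and of tetrad minus a-selection aneuploids at that level (overlap allowed). The 3 leading opposite calls per direction and the 3 uncalled genes of highest level completed it. Not every gene under the rule has its values printed: AFB1, STE6, TRP1, CAN1 and ADE2, for example, do not. CLN2, CTT1, FUS1, GCN4, HXT1, HXT2, HXT5, ICL1, IME1, NDT80, PCK1, SPS100, TDH3, TEF2 and TPS1 were added after their values were seen. Deviations of same-numbered libraries from their group means had correlations from -0.147 to 0.263 over 7 pairs. Pairs of T1 with T2 ran from -0.147 to 0.012, and pairs with the haploid control from 0.069 to 0.263. The deviations of the 2 haploid libraries mirror each other, so these pairs cannot decide whether same-numbered libraries varied together. The labels give only replicate numbers, and libraries were not treated as pairs.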

Additional observations from a re-analysis of the deposited data

Results flagged for a closer look

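The following differences between populations under the same contrast were tested in edgeR's fit and passed it at an adjusted p of 0.05 (n = 3 libraries per population). T2 minus T1, the log2 difference was 2.99 for NSR1, 2.72 for TRM11, 2.59 for AAH1 and 2.46 for CGR1. It was -2.34 for SSA4, -1.9 for HSP30, -1.73 for DPC7, a mitochondrial protein gene, and -1.71 for GPM2, a homologue of phosphoglycerate mutase. These 8 genes were picked for the size of this difference. That the 3 libraries of T2 lay all on one side of the 3 of T1 follows from that choice and adds no support.

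For 6 genes T1 and T2 were called on opposite sides of the haploid control, and T2 minus T1 was 1.08 for FUR4, 0.98 for THI7, a thiamine transporter gene, 0.81 for IMD2, -0.81 for BTN2, -0.88 for CPR6 and -1.5 for ADE17. IMD2, of guanine nucleotide synthesis, averaged 120.2 CPM in T1 and 211 CPM in T2, against 165 CPM in the haploid control. These genes were the leading ones by size among 105 with opposite calls.

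Tetrad minus a-selection aneuploids, the log2 difference was 8.65 for MF(ALPHA)2, 8.49 for MF(ALPHA)1, 5.15 for STE3 and 5.75 for URA3. STE3 averaged 234 CPM in T1 and 287 CPM in T2, against 7.40, 6.95 and 7.46 CPM in A1, A2 and A3. URA3 averaged 181 CPM in T1 and 141 CPM in T2, against 656, 0.244 and 0.15 CPM in A1, A2 and A3, so that A1 stood above T1 and T2 and the other two near 0. With populations as the units URA3 was not called (adjusted p = 0.966).

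In the other direction the difference was -5.48 for ERR1, an enolase-related gene with near-identical copies, -3.56 for LEU2, -1.8 for FBP1 and -1.78 for SFC1, a mitochondrial succinate and fumarate carrier gene. ERR1 was at 0, 0 and 0.106 CPM in T1 and 16.4, 0.0558 and 0 CPM in T2, so 1 library set the mean of T2, and it averaged 32.2, 30.9 and 9.97 CPM in A1, A2 and A3. The ERR1 difference was -9.04 without that library and -3.24 with populations as the units. LEU2 averaged 33.0 CPM in T1 and 18.6 CPM in T2, against 269, 244 and 376 CPM in A1, A2 and A3. ERR1, FBP1 and SFC1 were not called with populations as the units (adjusted p = 0.439, 0.197 and 0.274).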

How the results depend on the processing

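With populations as the units the called genes fell to 3127 in the tetrad aneuploids against the haploid control and to 28 in the tetrad minus a-selection aneuploids (27 higher and 1 lower), and URA3 turned to -0.44 in the second comparison. With library totals alone the log2 fold changes of the tetrad aneuploids against the haploid control turned to 0.25 for HO, 0.0541 for PRE9, 0.44 for BTN2, 0.22 for TRX2, 0.22 for MRPS8, 0.31 for SLM2, 0.035 for MSG5, 0.16 for LYP1 and 0.046 for PRE6, all below the 0.53 of the median gene there. In T1 they turned to 0.10 for FUR4 and 0.0084 for IMD2, and in T2 to 0.094 for BTN2, 0.25 for CPR6 and 0.18 for ADE17. Under that scaling the list medians turned positive for fermentation (2 members then called lower), Hsf1 targets (10), proteasome (0) and endoplasmic reticulum folding (9). Those of sulfate (11), iron (8), marker (3) and mitotic genes (3) did so too, again with the members then called lower in brackets. In T1 alone the medians of Hsf1 targets (13 members called lower) and of mitotic genes (10) turned positive. The cause was not tested.

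Leaving out 1 library each left 5171 to 5399 called genes for the tetrad aneuploids against the haploid control, 5211 to 5341 for T1, 5029 to 5222 for T2, 4049 to 4095 for T2 minus T1 and 4359 to 4466 for tetrad minus a-selection aneuploids. DESeq2 called 5305 in the first comparison. With the replicate block 5380, 5378, 5254, 4211 and 4485 genes were called in these 5 comparisons. By the labels, same-numbered libraries share only a number, and the block moved no count of calls by more than 1.5 times.

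Of the named calls, FUR4, BTN2, HXT15, MFA1 and MFA2 were lost in leave-one-out fits. FUR4, BTN2 and MFA2 were lost without haploid replicate 2 (adjusted p = 0.167, 0.252 and 0.39). Depth did not limit most genes, but genes with 0 to 5 haploid counts (URA3, LEU2, IME4, MEK1, HXT13 and HXT15) have folds set by counting error.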
